A study of Macaca mulatta with 30 samples.

Results

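Testis and thymus of rhesus macaque were examined for the expression they share and that cerebral cortex, an immortalized fibroblast line and pancreas do not. There were 12 arrays of testis and thymus among 30 arrays in all, and the remaining 18 held the other 3 tissues. RNA was prepared once from each source, and 2 aliquots were labeled and hybridized with the rhesus GeneChip at each of 3 centers, Oregon, Nebraska and Yerkes. Testis, thymus and pancreas RNA came from Oregon, cortex RNA from Yerkes and fibroblast RNA from Nebraska. No treatment was applied, and genotype, strain and age were not given in the sources used here. Testis and thymus thus had 6 arrays each, as did cerebral cortex, fibroblast and pancreas, and the 6 arrays of a tissue are repeats of 1 RNA. P-values below therefore measure the spread of labeling and hybridization between arrays and not that between animals.

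The testis is built of germ cells in successive stages of mitosis, meiosis and sperm formation, together with Sertoli, Leydig and vessel cells. The thymus is filled mostly with immature T cells that divide, rearrange their receptor genes and are selected on self antigens shown by epithelial and dendritic cells. Both organs are thus known to hold cells that divide and differentiate, but the cell composition of these samples was not measured. Cerebral cortex consists largely of cells that no longer divide, pancreas is dominated by secretory acinar cells, and the fibroblast line proliferates in culture.

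A gene was placed in the set above when the lower of its testis and thymus means exceeded the highest mean of cerebral cortex, fibroblast and pancreas, and in the set below when both means lay under the lowest of these 3. The distance between the nearest means, on the log2 scale, is called the gap here, and a gap of 1 is a factor of 2. A gene was called when each of its 6 differences, testis or thymus against each of the other tissues, passed an adjusted p of 0.05 in limma with center as a term. Of 52766 probesets, 6981 lay above and 11434 lay below by their means. The call was met by 4424 of them above, or 8.38% of those tested, and by 2255 below, or 4.27%. Among the 14132 genes with a symbol, each represented by its brightest probeset, 1688 lay above and 2524 below. The call left 1118 genes above, 7.91% of all genes, and 731 below, 5.17%. A gap of at least 1 was reached by 116 of those above (0.821% of all genes) and by 21 of those below (0.149%). CDC14A with 1.00 and MBTD1 with 0.997 lay on either side of this limit above, and RGS2 with -1.01 and RIDA with -0.991 did so below. For the same kind of pair, fibroblast and testis gave 1863 probesets called above and 843 below, and fibroblast and thymus gave 2394 and 1994, counts that share arrays with the present ones and were not tested against them.

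Marker genes bore out the tissue labels. Of 10 genes of Sertoli and Leydig cells measured, 10 were highest in testis, and of 23 germ cell genes 17 were. Of 22 thymocyte genes, 20 were highest in thymus. Over 6 marker genes of each of the other tissues, the mean level ran from 5.94 to 6.55 on the testis arrays, 5.47 to 6.11 on the thymus arrays and 12.53 to 13.13 on the cortex arrays for cortex markers. Fibroblast markers ran from 7.88 to 8.56 in testis, 6.67 to 7.25 in thymus and 12.53 to 13.09 in fibroblast. Pancreas markers ran from 6.50 to 7.24 in testis, 5.36 to 6.25 in thymus and 14.25 to 14.80 in pancreas. All 6 pancreas markers were highest in pancreas, but testis minus thymus reached 6.14 among them. The excess of the 3' over the 5' control probesets of GAPDH and ACTB, a sign of RNA integrity and labeling length, averaged 0.54 ± 0.39 (SD, n = 12 arrays) in testis and thymus and 1.42 ± 0.70 (n = 18) in the other 3 tissues. It was 0.72 in testis and 0.36 in thymus, against 0.66 in cortex, 1.91 in fibroblast and 1.70 in pancreas, so that cortex stood with testis and thymus. This measure therefore moved with the comparison for fibroblast and pancreas, and its part in the results below was not tested. The study's quality measures also set the pancreas arrays apart, and the counts of probesets, genes and the main lists are given without them at the end.

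Genes high in both tissues were led by nuclear proteins, enzymes and immune proteins. The 15 called genes with the widest gaps were CTSV, CYP1B1, HMGN5, PYCARD, SVIP, IFITM1, CD1B, PTPRC, IFI27, INTS6L, PNN, BPTF, TIA1, DNAJC5B and TET1, with gaps from 1.57 to 3.07. All 12 arrays of testis and thymus lay above all 18 others for each of these 15. Of all 1118 genes called higher, 307 had no such overlap. At each center separately, the 4 arrays of testis and thymus lay above the 6 others for 116 of the 116 genes with a gap of at least 1 and for 854 of all 1118 called, where 6.14% of all genes did so. The genes were chosen by their gap or call on these same arrays, so this separation largely follows from the choice.

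CTSV, a lysosomal cysteine protease that in the thymus takes part in preparing peptides for presentation, had the widest gap. Its log2 signal had a lowest, median and highest value of 7.61, 7.89 and 8.19 in testis and 10.43, 10.65 and 11.10 in thymus. The same values were 4.52, 4.82 and 5.09 in cerebral cortex, 3.30, 4.12 and 4.60 in fibroblast, and 3.85, 4.40 and 4.63 in pancreas. The groups did not overlap, and thymus stood well above testis. The gap was 3.07 (SE 0.14), a factor of 8.39, and the largest of the 6 adjusted p-values was 2.65e-19 by limma. The means of all 3 other tissues lay under the average of the array medians, 6.28, for CTSV, so the size of its gap is read against levels near background. The same held for the means of HMGN5, PYCARD, CD1B, PTPRC and TET1, and so for 6 of the 15 leading genes.

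CYP1B1, a cytochrome P450 that oxidizes steroids and polycyclic compounds, was high in both organs, with testis minus thymus at -0.50 (limma adjusted p 0.0102). It read 8.28, 9.02 and 9.83 in testis and 8.64, 9.70 and 10.48 in thymus (lowest, median, highest), against 5.67, 6.39 and 6.78 in cortex, 5.92, 6.49 and 6.68 in fibroblast and 5.66, 6.0 and 6.59 in pancreas. Every array of testis and thymus exceeded every other array. The gap was 2.77 (SE 0.16, largest limma adjusted p 6.14e-16), and the other 2 probesets of the gene gave gaps of 2.96 and 3.15, both called.

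HMGN5, a nucleosome-binding protein that loosens chromatin, read 8.61, 8.86 and 9.10 in testis and 8.45, 8.58 and 8.80 in thymus. Cortex was next with 6.16, 6.24 and 6.54, then fibroblast with 5.53, 5.82 and 6.36 and pancreas with 4.71, 4.99 and 5.52. The gap of 2.32 (SE 0.11, largest limma adjusted p 4.69e-19) was a factor of 5.00, and the second probeset had a gap of 1.13 and was called. PYCARD, the adaptor protein of inflammasomes, had medians of 8.28 in testis and 8.30 in thymus, and of 5.91, 5.96 and 5.94 in cortex, fibroblast and pancreas, with a gap of 2.10 (SE 0.07). SVIP, an inhibitor of protein degradation from the endoplasmic reticulum, had medians of 10.61 and 10.74 in testis and thymus and 8.49, 8.33 and 8.52 in the others, with a gap of 2.09 (SE 0.11). Cortex, fibroblast and pancreas were near one another for PYCARD and SVIP, and testis and thymus stood apart from them. Of the 6 other SVIP probesets, 3 were called higher and 3 were not called.

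BPTF, the large subunit of the NURF chromatin remodeler that reads histone marks, read 10.91, 11.24 and 11.35 in testis and 10.45, 11.31 and 11.37 in thymus. It read 8.97, 9.20 and 9.49 in cortex, 9.0, 9.39 and 9.71 in fibroblast and 8.42, 9.17 and 9.36 in pancreas, without overlap. Its gap was 1.73 (SE 0.09), and 2 of its other 4 probesets were called higher, while the remaining 2 had fibroblast near testis and gaps of -0.05 and -0.52. TET1, which oxidizes methylated cytosine in DNA, had medians of 7.36 in testis and 7.51 in thymus against 5.70, 5.31 and 5.33 in cortex, fibroblast and pancreas, with a gap of 1.57 (SE 0.12) and a second probeset called at 1.13. PNN, a nuclear speckle protein active in splicing, had a gap of 1.76 (SE 0.10), INTS6L, related to a subunit of the Integrator complex, one of 1.88 (SE 0.09), and TIA1, an RNA-binding regulator of splicing and translation, one of 1.70 (SE 0.09). The other INTS6L probeset was not called, at a gap of -0.38. Its means were 7.02 in testis and 6.90 in thymus against 6.95, 7.07 and 7.28 in cortex, fibroblast and pancreas. DNAJC5B, a J-domain cochaperone, had a gap of 1.58 (SE 0.08), with 1 other probeset called and 2 near background not called.

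**Figure D1:**
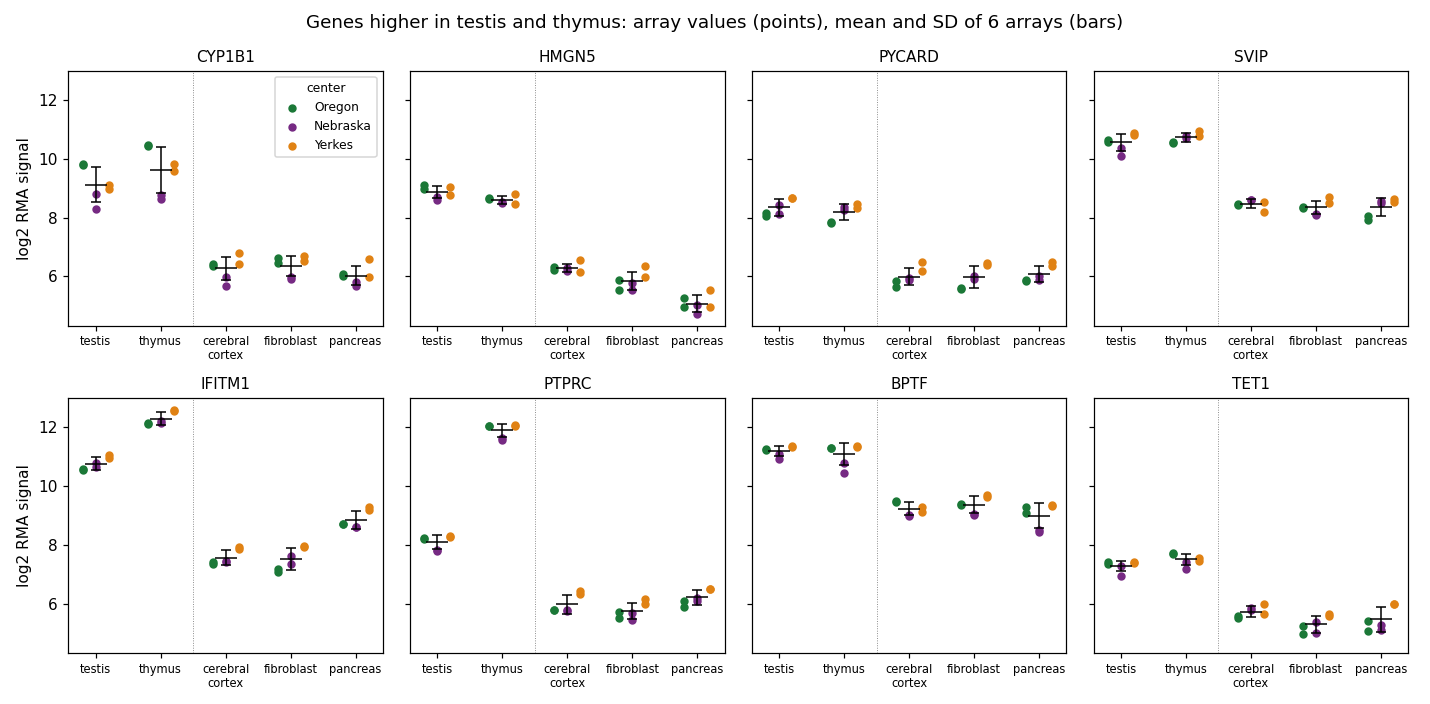
Log2 RMA signal (y axis) of 8 genes higher in testis and thymus, by tissue (x axis), with 1 point per array colored by center and bars for the mean and SD of 6 arrays. For each gene all testis and thymus points lie above all points of cerebral cortex, fibroblast and pancreas, and for PTPRC and IFITM1 thymus lies above testis.

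Chromatin and splicing genes gave the most calls of the 23 lists, 15 and 16. The lists, like the comparison itself, were drawn up with earlier results of these data known. Of 39 chromatin genes measured, 15 were called higher (38.5%, against 7.91% of all genes), 0 lower and 24 did not pass. Their median difference between the mean of testis and thymus and the mean of the other 3 tissues was 1.10, where the median over all genes was -0.11. SMARCE1, a DNA-binding subunit of SWI/SNF remodelers, was almost flat within each set, at 9.82, 10.02 and 10.11 in testis and 9.86, 9.94 and 10.08 in thymus against 8.25, 8.37 and 8.55 in cortex, 8.26, 8.42 and 8.77 in fibroblast and 8.30, 8.39 and 8.53 in pancreas. Its arrays fell into a higher and a lower set, with a gap of 1.46 (SE 0.07, largest limma adjusted p 1.22e-18). SIRT1, a histone and protein deacetylase, had a gap of 1.34 (SE 0.11), and HMGN1, a nucleosome-binding protein, one of 1.01 (SE 0.10) with fibroblast next. The DNA methyltransferases DNMT3A and DNMT3B were both called, DNMT3B at a gap of 0.84 (SE 0.08). CHAF1B, a histone chaperone used in replication, lay furthest to the other side, with means of 5.95 in testis and 6.52 in thymus against 6.20, 6.4 and 6.45 in cortex, fibroblast and pancreas, and was not called.

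Of 36 splicing genes, 16 were called higher (44.4%) and 0 lower, with a median difference of 1.13. SRSF10, a serine and arginine rich regulator of exon choice, read 9.03, 9.78 and 9.89 in testis and 9.79, 10.11 and 10.31 in thymus against 6.85, 7.27 and 7.43 in cortex, 7.81, 8.42 and 8.57 in fibroblast and 7.28, 7.43 and 7.75 in pancreas. Its gap was 1.31 (SE 0.09, largest limma adjusted p 2.94e-14), with no overlap of arrays. SON, a scaffold of nuclear speckles, had a gap of 1.22 (SE 0.08), and SRSF6, another splicing regulator of the same kind, one of 0.91 (SE 0.06). The heterogeneous nuclear ribonucleoproteins HNRNPC, HNRNPD, HNRNPH1, HNRNPK, HNRNPL, HNRNPM and HNRNPU were all called, as were U2AF1, which binds the 3' splice site, and the core spliceosome proteins PRPF8 and SNRNP200. PRPF19 was not called and had its most opposite value, a gap of -0.29 below cortex. Thymus was the highest tissue for 25 of the 36 genes and testis for 8, and fibroblast was highest for 2.

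Further nuclear families, picked from gene symbols after the values had been seen among 31 families looked at, gave the following counts. They are read beside the 7.91% of all genes called higher and 5.17% called lower. Of 15 genes in bromodomain families, whose products bind acetylated histones, 12 were called higher (80.0%) and 0 lower. BRD2 ran from 9.99 to 11.22 in testis and from 10.23 to 11.11 in thymus, against 8.54 to 9.36 in cortex, 8.81 to 9.62 in fibroblast and 8.36 to 9.47 in pancreas, with a gap of 1.51 (SE 0.11), and PHIP and BAZ2A had gaps of 1.34 and 1.18. Of 19 KDM, JMJD and JARID genes, most of them histone demethylases, 10 were called higher (52.6%) and 0 lower. They were led by KDM3B at 1.33 (SE 0.08), JARID2, a cofactor of Polycomb repressive complex 2, at 1.23 (SE 0.10) and KDM5A at 1.19 (SE 0.09). Of 20 lysine methyltransferase genes 8 were called higher, with SETD2, which methylates histone H3 along transcribed genes, at 1.10 (SE 0.07). Of 284 genes named ZNF, mostly zinc finger repressors and other DNA-binding proteins, 67 were called higher (23.6%) and 5 lower, with ZNF559 at 1.5 (SE 0.08). Of 32 RBM genes for RNA-binding proteins, 10 were called higher and 1 lower, with RBM39 at 1.23 (SE 0.05) and RBM5 at 1.14 (SE 0.08). Testis minus thymus ranged from -0.44 to 1.97 over the bromodomain genes, from -1.03 to 1.73 over the demethylases and from -2.14 to 2.95 over the ZNF genes, with members on either side of 0. Of 49 histone genes, by contrast, 1 was called higher and 1 lower (2.04% each), and thymus lay above testis for 44 of them.

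No mitosis gene met the call, while some genes of DNA replication and repair did. Of 28 mitosis genes 0 were called in either direction by limma, although 26 were highest in thymus, and the mean level of the list ran from 7.11 to 7.67 on the testis arrays and 9.14 to 9.42 on the thymus arrays, with fibroblast between them at 8.15 to 8.70. Cortex and pancreas ran from 5.54 to 6.06 and from 5.85 to 6.48. CKS1B, a cofactor of cyclin-dependent kinases, had the widest gap of these genes, 0.13 with a largest adjusted p of 0.165 by limma. Of 27 DNA replication genes 4 were called higher (14.8%, against 7.91% of all genes) and 0 lower. They were POLE2, GINS3, RFC5 and POLA1, with POLE2, a DNA polymerase epsilon subunit, at 0.51 (SE 0.09). In DNA repair, 7 of 27 were called higher (25.9%) and 0 lower. Among them were FANCM, a DNA translocase at stalled forks, at 0.69 (SE 0.08), the uracil glycosylase UNG at 0.47 (SE 0.08) and BARD1, the partner of BRCA1, at 0.47 (SE 0.08). Without a center term 1 replication gene and 4 repair genes were called.

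Among 28 cell cycle regulators 7 were called higher, a larger share than the 7.91% of all genes. Only 1 was called lower (3.57%, under the 5.17% of all genes). MYB, a transcription factor of progenitor cells, had the widest gap of 1.56 (SE 0.08), but testis, at a median of 7.08, was far under thymus at 11.25, with 5.59, 5.49 and 5.53 in cortex, fibroblast and pancreas. The other MYB probeset was not called, at a gap of -0.32, with means of 4.82 in testis and 7.13 in thymus. E2F5 had a gap of 0.65 (SE 0.07) and was higher in testis, and MYCN had one of 0.58 (SE 0.08). The other MYCN probesets, at -0.70 and -0.66, were not called. RB1, RBL2 and CDKN1B, which restrain entry into S phase, were called as well. CCND1, cyclin D1, which drives entry into the cycle, was the gene called lower, at 6.21, 6.46 and 7.20 in testis and 6.06, 6.27 and 7.27 in thymus against 7.16, 7.29 and 7.97 in cortex, 9.4, 9.97 and 10.85 in fibroblast and 7.30, 7.4 and 8.61 in pancreas. The lowest cortex array and the highest testis and thymus arrays overlapped over the pooled centers, and the gap was -0.83 (SE 0.09, largest limma adjusted p 9.22e-10).

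**Figure D2:**
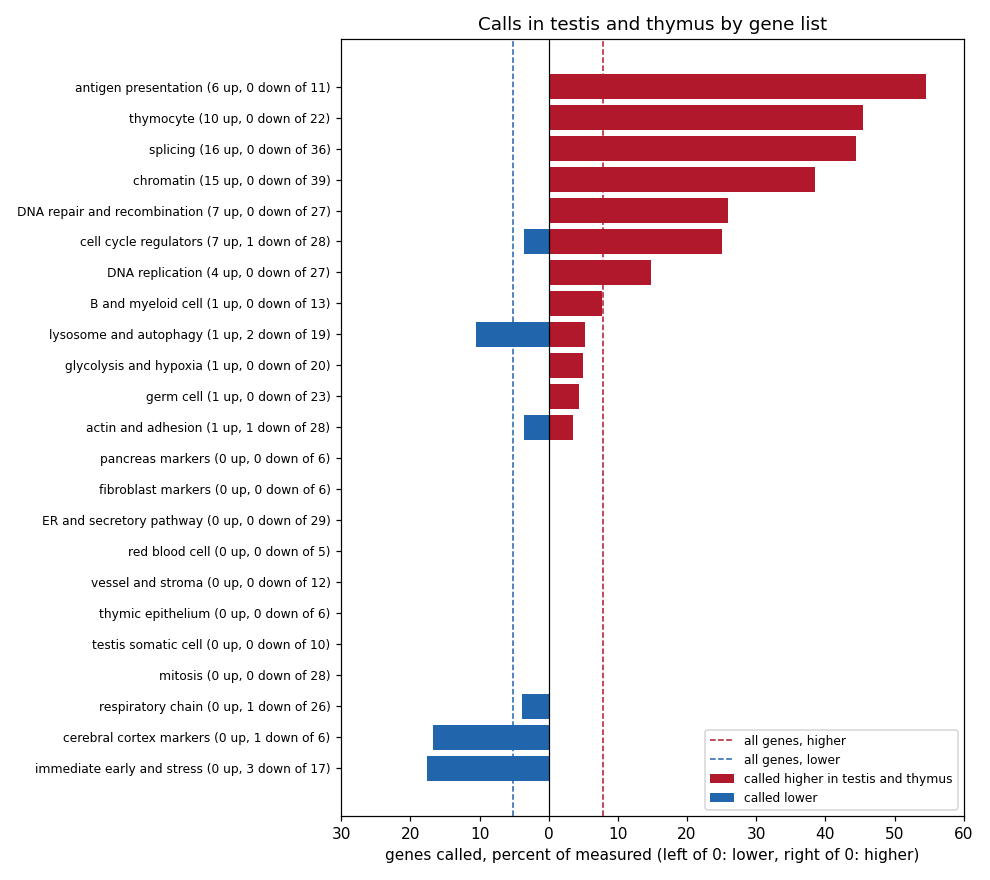
Percent of the measured genes of each of 23 lists (y axis, with counts) called higher (right of 0) or lower (left of 0) in testis and thymus, with dashed lines at the percent over all genes, 7.91 higher and 5.17 lower. Antigen presentation, thymocyte, splicing and chromatin lists extend furthest to the right, and mitosis has no call.

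Of 22 thymocyte genes 10 were called higher (45.5%, against 7.91% of all genes) and 0 lower, and thymus lay above testis for 20 of the 22. CD1B, which presents lipid antigens and is typical of cortical thymocytes, read 7.84, 7.96 and 8.47 in testis and 12.02, 12.10 and 12.61 in thymus against 5.28, 5.52 and 6.24 in cortex, 5.08, 5.44 and 5.93 in fibroblast and 5.86, 6.05 and 6.65 in pancreas. Testis thus lay between thymus and the other tissues without overlap, at a gap of 1.90 (SE 0.07) and a testis minus thymus difference of -4.15 (SE 0.07). PTPRC, the leukocyte phosphatase CD45, read 7.79, 8.22 and 8.31 in testis and 11.57, 12.03 and 12.08 in thymus, against medians of 5.78, 5.69 and 6.15 in cortex, fibroblast and pancreas, with a gap of 1.89 (SE 0.09), and 2 of its 3 other probesets were called at 2.25 and 2.57.

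Of 38 genes with thymus at least 4 above the highest mean of cortex, fibroblast and pancreas, 34 were called higher. Testis minus thymus ran from -4.58 to -2.85 over these 38, with quartiles of -4.28 and -3.8 and a median of -4.12. Of 8 genes as far above in testis, 4 were called, with thymus minus testis from -5.96 to -2.13. A call was thus usual for genes this far above in thymus, and its cause was not tested. Among the thymocyte genes called higher, several lay at similar distances below thymus in testis. Testis minus thymus was -4.53 for TRAT1, -4.52 for CD8A, -4.43 for TCF7, -4.25 for CD8B, -4.24 for DNTT and CD1A and -4.22 for RAG2. DNTT and RAG2 act in the rearrangement of antigen receptor genes in immature lymphocytes, and their medians were 6.63 and 5.94 in testis, 10.94 and 10.06 in thymus and at most 5.75 and 4.95 in the others. Of the 16 thymocyte genes with a thymus mean of at least 10, 10 were called, and testis minus thymus ran from -4.53 to 0.32 over the 16. It was -4.5 for ARPP21 and SH2D1A, -4.29 for GATA3, -3.70 for PTCRA, -3.37 for CD1C and -2.25 for ZAP70, none of them called, and 0.32 for LAT and 0.16 for CD1E, both called. The CD1E probeset used was bright in every tissue, with medians of 12.12 in testis and 12.09 in thymus against 10.48, 10.88 and 9.81 in cortex, fibroblast and pancreas, while its other 2 probesets gave means of 6.19 and 6.49 in testis and 9.83 and 10.82 in thymus.

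The mean level of the whole thymocyte list ran from 6.95 to 7.48 on the testis arrays and from 10.01 to 10.62 on the thymus arrays, against 6.10 to 6.84 in cortex, 5.97 to 6.63 in fibroblast and 6.21 to 6.88 in pancreas. Of 13 B cell and myeloid genes 1 was called higher (7.69%, near the 7.91% of all genes), the lysozyme gene LYZ, with medians of 6.88 in testis and 10.32 in thymus and 5.19, 4.62 and 6.20 in the others. Genes of red blood cells gave 0 calls of 5 by limma in either direction. The part of lymphoid cells, or of RNA from them, in the testis values was not tested. In bulk RNA of this kind, fewer cells of a type and less RNA per cell cannot be told apart.

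Of 11 antigen presentation genes 6 were called higher (54.5%, the highest share among the 23 lists) and 0 lower. MAMU-DRA, the alpha chain of a rhesus class II molecule, read 9.88, 10.04 and 10.53 in testis and 12.22, 12.44 and 12.71 in thymus against 6.53, 6.7 and 7.30 in cortex, 5.87, 6.15 and 6.77 in fibroblast and 8.70, 8.77 and 8.86 in pancreas. Pancreas was the next tissue, and the gap was 1.37 (SE 0.09). CD74, the invariant chain that guides class II molecules, and MAMU-DMA, which loads their peptides, had gaps of 1.11 (SE 0.12) and 1.08 (SE 0.07), and MAMU-DQA1, TAP1 and B2M had 0.40, 0.40 and 0.31. The other probesets of MAMU-DRA were called higher, at 1.12 and 1.04. Those of MAMU-DMA, at 0.13 and -0.10, and of B2M, at 0.12, were not called. Thymus lay above testis for all 11 genes measured, by 2.30 for MAMU-DRA. CIITA, the master regulator of class II genes, was not called and lay near background, with a gap of -1.02. Interferon-induced genes were led by IFITM1, an antiviral membrane protein, with medians of 10.72 in testis and 12.18 in thymus against 7.42, 7.49 and 8.71 in cortex, fibroblast and pancreas, and a gap of 1.91 (SE 0.07). IFI27 was the reverse within the pair, with medians of 11.89 in testis and 9.76 in thymus against 6.61, 6.33 and 7.78, and BST2, which tethers budding viruses, had a gap of 1.25 (SE 0.06). Of 35 interferon-induced genes, a family picked after the values were seen, 5 were called higher (14.3%, against 7.91% of all genes) and 1 lower (2.86%, against 5.17%).

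**Figure D3:**
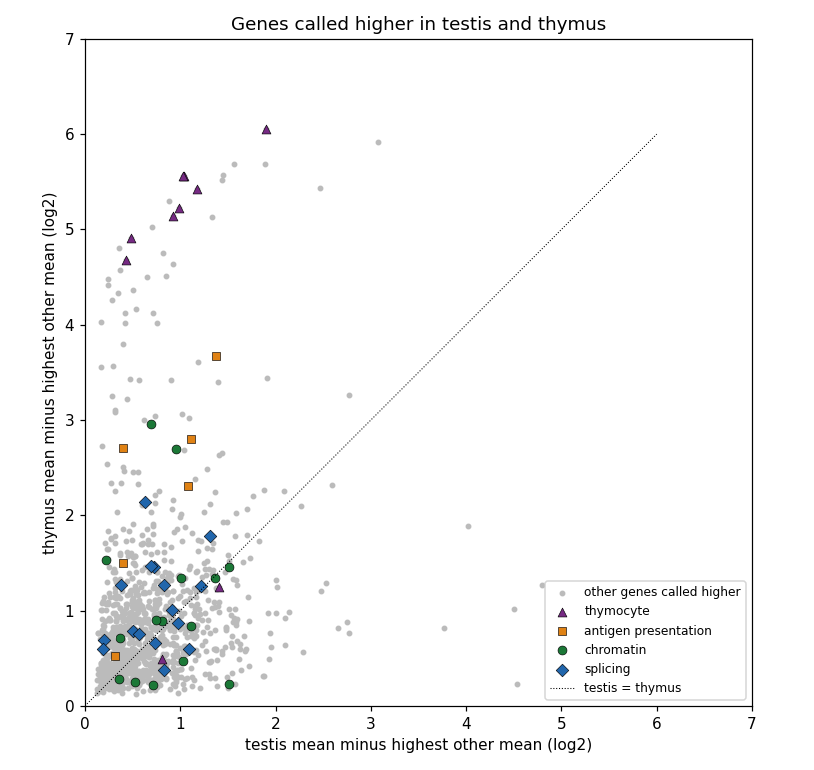
For each gene called higher, the testis mean minus the highest mean of the other 3 tissues (x axis, log2) and the thymus mean minus the same value (y axis, log2), with 4 lists marked and a dotted line where testis equals thymus. Chromatin and splicing genes mostly lie near the line at low values on both axes, while most thymocyte genes lie far above the line.

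Over all 1118 genes called higher, testis and thymus differed by less than 1 for 961, thymus was higher by at least 1 for 122 and testis for 35. The difference passed an adjusted p of 0.05 by limma for 751 (67.2%), where 65.1% of all genes did. Testis was the lower of the pair, and so set the gap, for 667 genes and thymus for 451. The next tissue was fibroblast for 578 genes, cortex for 295 and pancreas for 245. Of 10 testis somatic genes, 6 thymic epithelial genes and 12 vessel and stroma genes 0 were called in either direction by limma. STAG3, a meiotic cohesin subunit, was the 1 germ cell gene of 23 called higher (4.35%, under the 7.91% of all genes). It had medians of 8.60 in testis and 7.38 in thymus against 6.42, 6.27 and 6.50, and a gap of 0.77 (SE 0.07).

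Fewer genes were called below the other tissues than above, although more lay below by their means, and the gaps of those called had a median of -0.27. The 15 called genes with the widest gaps were ATP8B3, MT2A, EP400, CHCHD10, SLC7A11, DDAH1, PHLDA1, MGST1, PTPRK, AP1G1, CD24, PTPRN, DPP7, WWC1 and CHP1, from -4.03 to -1.21. For each of the 15, all 12 arrays of testis and thymus lay below all 18 others, which largely follows from their choice by gap on these arrays. Of all 731 genes called lower, 64 had no overlap over all arrays. Within each center 369 had none, where 2.68% of all genes did. In 5 of the 15, both testis and thymus lay below 6.28 and so were near background.

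MT2A, a metallothionein that binds zinc and copper, was the widest gap with a single probeset. It read 8.69, 9.05 and 9.09 in testis and 8.30, 8.77 and 8.90 in thymus, against 10.59, 11.01 and 11.09 in cortex, 13.78, 13.83 and 14.29 in fibroblast and 12.14, 12.67 and 12.77 in pancreas. All arrays of testis and thymus were low, and fibroblast was the highest. The gap was -1.93 (SE 0.09, largest limma adjusted p 2.3e-19), a factor of 3.82. Of 4 metallothionein genes, a family picked after the values were seen, 3 were called lower, where 5.17% of all genes were. MT1X and MT1E were both at -0.81. Other MT1X probesets were called lower at -0.44 and -0.70, but another was not called. Its means were 8.3 in testis and 8.4 in thymus against 8.1, 8.43 and 7.47 in cortex, fibroblast and pancreas.

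SLC7A11, the cystine importer that feeds glutathione synthesis, read 5.22, 5.79 and 6.08 in testis and 5.55, 6.15 and 6.24 in thymus against 8.63, 8.84 and 8.99 in cortex, 8.20, 8.42 and 8.79 in fibroblast and 7.05, 7.77 and 8.02 in pancreas. Both organs were near background and the others were not, with a gap of -1.54 (SE 0.11) and a second probeset called at -0.47. MGST1, a membrane glutathione transferase, read 6.55, 6.77 and 6.98 in testis and 6.76, 7.02 and 7.15 in thymus against medians of 8.44, 8.26 and 9.90 in cortex, fibroblast and pancreas, with a gap of -1.36 (SE 0.08) and a second probeset at -0.95. The quinone reductase NQO2, the glutathione transferase GSTO1, the carbonyl reductase CBR1, the sulfiredoxin SRXN1, the methionine sulfoxide reductase MSRA and the ferritin light chain FTL, named after their values were seen, were called lower with gaps of -0.94, -0.91, -0.88, -0.80, -0.73 and -0.61. No list of redox genes was counted. GCLC and GCLM, the subunits of the enzyme that starts glutathione synthesis, were not called. GCLC had means of 10.06 in testis and 10.18 in thymus against 9.23 in cortex, 11.93 in fibroblast and 7.12 in pancreas, and GCLM had 8.89 and 9.02 against 8.78, 9.64 and 8.01.

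CHCHD10, a mitochondrial protein of the intermembrane space, had medians of 7.76 in testis and 7.68 in thymus and 9.74, 9.66 and 9.38 in cortex, fibroblast and pancreas, with a gap of -1.57 (SE 0.08) and a second probeset at -1.37. Of 26 respiratory chain genes only SDHB was called (3.85% lower, against 5.17% of all genes), at -0.25 (SE 0.06). DDAH1, which breaks down methylated arginines that inhibit nitric oxide synthase, read 7.20, 7.55 and 7.91 in testis and 5.02, 5.46 and 5.73 in thymus, against medians of 9.80, 9.53 and 9.01. Testis and thymus were thus themselves 2.15 apart, and the gap was -1.51 (SE 0.08). PHLDA1, a pleckstrin homology-like protein induced by growth signals, had medians of 5.68 in testis and 5.61 in thymus against 7.25, 10.80 and 7.98, with a gap of -1.49 (SE 0.07) and 4 of 4 other probesets called lower.

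The receptor tyrosine phosphatase PTPRK, which signals at cell contacts, had medians of 7.42 in testis and 7.31 in thymus and 9.99, 10.03 and 8.91 in cortex, fibroblast and pancreas, with a gap of -1.35 (SE 0.07). PTPRN, a protein of secretory granules, had a gap of -1.28 (SE 0.07). Of 13 PTPR genes, a family picked after the values were seen, 5 were called lower (38.5%, against 5.17% of all genes). PTPRC alone was called higher (7.69%, near the 7.91% of all genes). CD24, a surface glycoprotein, had a gap of -1.28 (SE 0.08), WWC1, a scaffold of Hippo signaling, -1.22 (SE 0.13), the calcium-binding protein CHP1 -1.21 (SE 0.09), and the lysosomal peptidase DPP7 -1.26 (SE 0.13). TPM1, an actin-binding tropomyosin, was called lower at -0.82 (SE 0.07), while ANXA5, which binds membrane phosphatidylserine, was called higher at 0.51 (SE 0.12). The 28 actin and adhesion genes thus had 1 call each way (3.57% each, under the 5.17% lower and 7.91% higher of all genes). Of 19 lysosome and autophagy genes, 2 were called lower (10.5%, against 5.17% of all genes) and 1 higher (5.26%, under the 7.91% of all genes). ATP6AP1 and CTSF were lower at -0.72 and -0.44 and MAP1LC3B, a component of autophagosomes, was higher at 0.66. DDIT4, a stress-induced inhibitor of mTORC1, was the 1 glycolysis and hypoxia gene of 20 called higher (5.0%, under the 7.91% of all genes), at 0.44 (SE 0.06), and had a gap of -0.13 after quantile normalization of all 30 arrays. Of 29 genes of the endoplasmic reticulum and secretory pathway, 0 were called by limma, and fibroblast was the highest tissue for 19. Of 17 immediate early and stress genes 3 were called lower (17.6%, against 5.17% of all genes), MT2A, MT1X and GADD45B. GFAP, an astrocyte filament, was called lower at -0.21 (SE 0.09), with testis, thymus and the next tissue, fibroblast, all near background at 6.31, 6.39 and 6.60. The lists with 0 calls also had 0 genes at an unadjusted p under 0.05 in all 6 differences, with 1 exception in the secretory pathway. Among the families looked at, 19 of 282 solute carrier genes were called lower (6.74%, where 5.17% of all genes were) and 7 higher (2.48%, where 7.91% were).

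For 3 leading genes called lower, other probesets of the same gene lay in the other direction. ATP8B3, a lipid transporter of the P4 ATPase family, had the widest gap of all, -4.03 (SE 0.10), with medians of 4.94 in testis and 5.09 in thymus against 10.84, 9.19 and 11.84, yet its other 2 probesets had their highest means in testis, 6.67 and 7.47, and were not called. EP400, a subunit of a chromatin remodeling complex, was called at -1.72 (SE 0.08) by its brightest probeset, which read 12.56 at the median in pancreas, and its other 2 probesets were called higher in testis and thymus, at 0.21 and 0.60. AP1G1, a clathrin adaptor subunit, was called at -1.34 (SE 0.08), and 2 of its other 4 probesets were called higher, at 0.29 and 0.34. The direction for these 3 genes thus depended on the probeset, and the values above hold only for the brightest one.

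**Figure D4:**
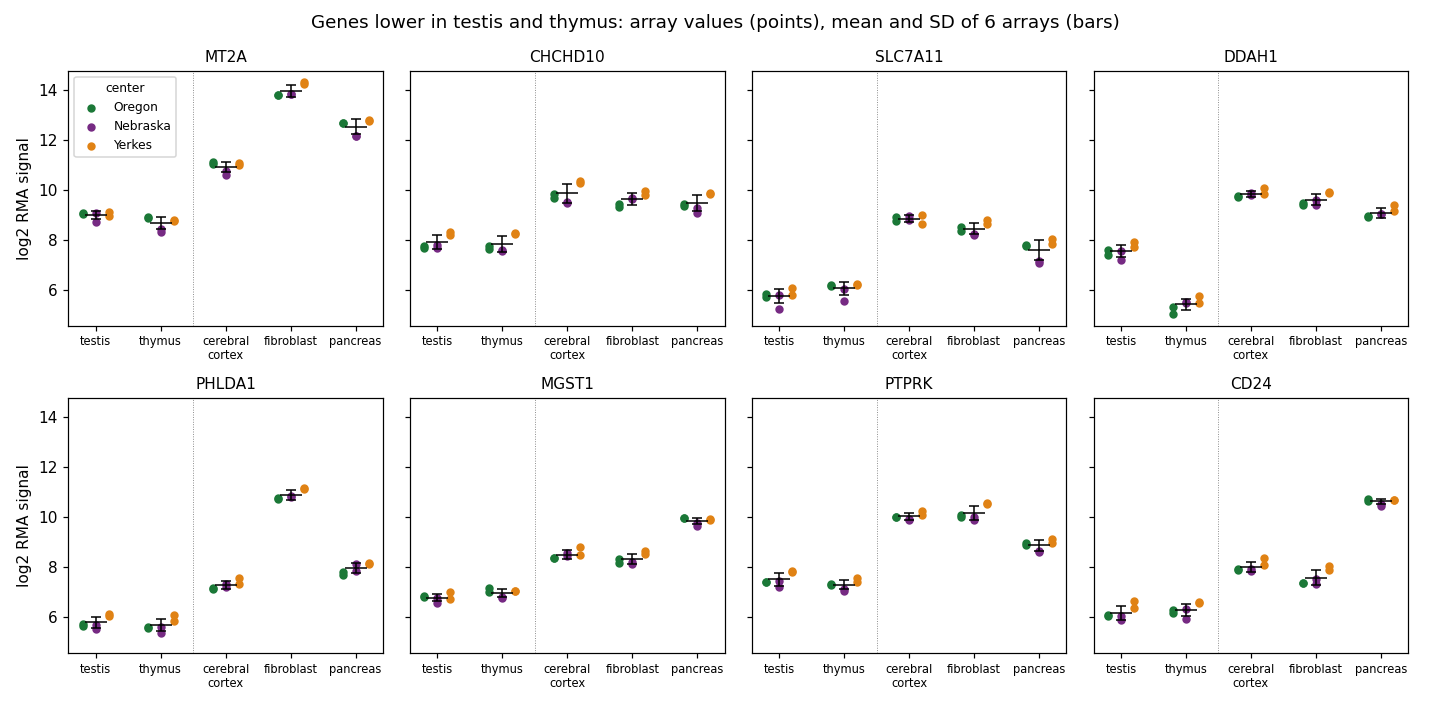
Log2 RMA signal (y axis) of 8 genes lower in testis and thymus, by tissue (x axis), with 1 point per array colored by center and bars for the mean and SD of 6 arrays. All testis and thymus points lie below all other points for each gene, and for DDAH1 testis lies above thymus. CD24 is shown by 1 of 3 probesets, of which 1 other was called lower.

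Other probesets of a gene measure it through other probe sequences that did not choose it. Of 168 other probesets of the genes called higher by at least 1, 120 (71.4%) were called higher and 1 lower. Of 1319 other probesets of all genes called higher, 616 (46.7%) were called higher and 6 lower, where 10.2% of all 10824 such probesets were called higher. For genes called lower by at least 1, 19 of 31 other probesets (61.3%) were called lower and 4 higher. For all genes called lower, 124 of 426 (29.1%) were called lower and 11 higher, where 3.9% of all such probesets were called lower. Probesets of 1 gene can share sequence, and these shares were not compared by a test.

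Genes chosen at 2 centers were also found at the remaining center, on arrays that had no part in the choice. With gaps of at least 1 at Nebraska and Yerkes, 70 genes were chosen as higher, and all 70 were called higher at Oregon, with a median gap of 1.42 there. For Nebraska as the center left for the check, 81 of 81 were called, with a median of 1.25. For Yerkes they were 84 of 84, with 1.17. In the lower direction 15 of 15 genes were called at each remaining center. The median gap was -1.43 on the Oregon arrays, -1.39 on those of Nebraska and -1.38 on those of Yerkes. Of all genes, Oregon alone called 8.56% higher and 5.65% lower. Nebraska called 5.25% and 2.18%, and Yerkes 5.32% and 2.26%. The centers used aliquots of the same RNA, so these numbers describe the arrays and not further animals. Among the leading genes the gap varied most between centers for CYP1B1, which had 3.27 on the Oregon arrays and 2.60 and 2.42 on those of Nebraska and Yerkes, and for WWC1, which had -1.60, -0.72 and -0.98 in that order.

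**Figure D5:**
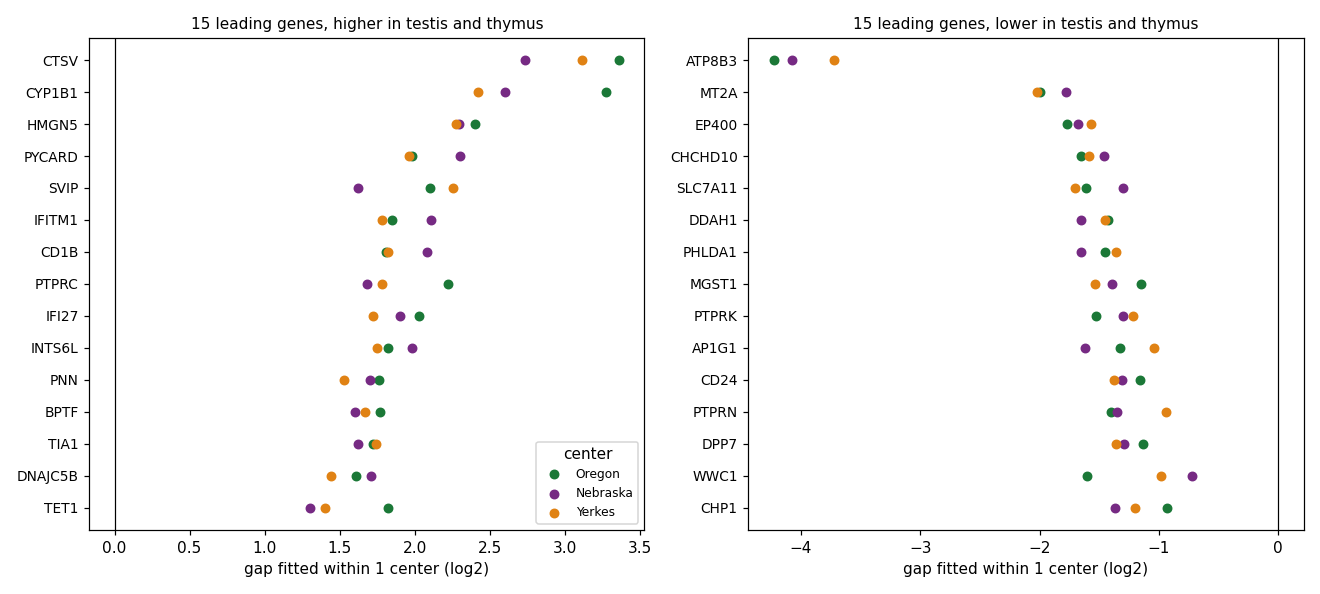
Gap on the log2 scale (x axis) fitted within each center for the 15 leading genes higher (left) and the 15 lower (right) in testis and thymus, with 1 point per center. All points lie on the side of 0 given by the call, and the spread between centers is widest for WWC1 and CYP1B1.

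Leaving out the pancreas arrays changed the counts, since then only cortex and fibroblast had to be exceeded. The probesets called were 5834 higher and 3917 lower, and those with a gap of at least 1 were 841 and 398, against 538 and 52 with pancreas. Of the genes, 1467 were called higher and 1398 lower, 194 and 167 of them with a gap of at least 1. The list calls higher were then 15 for chromatin, 17 for splicing, 15 for thymocyte, 6 for antigen presentation, 8 for DNA repair, 4 for DNA replication and 6 for cell cycle regulators, and mitosis still had 0 by limma. Of the 4424 probesets called higher with pancreas 4399 remained, and of the 2255 called lower 2204. For all 15 leading genes in each direction the call was kept without pancreas. By the contrast of the mean of testis and thymus with the mean of the other 3 tissues alone, 43850 probesets passed, 6941 of them separated above and 11283 below.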

How the data were processed

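The authors deposited log2 RMA signals of 30 rhesus GeneChip arrays (MAS background correction, quantile normalization within each center, joint RMA summarization), and these were not renormalized. Array controls (99 probesets) were left out. Gene symbols came from the platform annotation: 24956 probesets had 1 symbol, 361 several and 27449 none, and 24616 matched the RefSeq table. The limma model (limma 3.58.1, R 4.3.3) held tissue and center, with Benjamini-Hochberg adjustment over 52766 probesets for each difference, and was tested on simulated data. The probeset with the highest mean over all arrays stood for its gene.

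Genes named were the 15 called genes with the widest gap in each direction, without LOC symbols, and for each of 23 lists the 3 widest and the 1 most opposite. Further genes were named after their values were seen. The members and lists were chosen with earlier results of these data known. Alternatives were quantile normalization of all arrays, a filter on mean signal, no center term, a replicate block, arrays left out, the pooled contrast and gene means. Promoter motifs were not analysed here. The precision is limited by the number of arrays.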

Additional observations from a re-analysis of the deposited data

Results flagged for a closer look

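Testis and thymus differed from each other in 18 of the 30 leading genes (limma adjusted p under 0.05, where 65.1% of all genes differed). Testis minus thymus was -2.85 for CTSV, -0.50 for CYP1B1, 0.26 for HMGN5, 0.17 for PYCARD, -1.53 for IFITM1, -4.15 for CD1B, -3.80 for PTPRC and 2.13 for IFI27. It was -0.39 for INTS6L, -0.44 for PNN, -0.37 for TIA1 and -0.43 for DNAJC5B. Among the lower genes it was 0.31 for MT2A, -0.32 for SLC7A11, 2.15 for DDAH1, -0.19 for MGST1, 0.22 for PTPRK and -0.27 for CHP1. Differences of at least 1 were thus confined, among these 30, to CTSV, IFITM1, CD1B, PTPRC, IFI27 and DDAH1.

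Of 265 groups of 6 arrays examined, 3 had 1 array apart from the other 5 of its tissue. The 6 arrays come from 3 centers with different signal levels, so this number was not set against chance. The highest thymus array for TIA1 read 8.81, the lowest testis array for TET1 read 6.95 and the lowest thymus array for SLC7A11 read 5.55. Each of them still lay on its side of all arrays of cerebral cortex, fibroblast and pancreas.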

How the results depend on the processing

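All 30 leading genes kept their call under quantile normalization of all 30 arrays, no center term, the replicate block, without pancreas and with any center or replicate left out. Taken as the mean of all its probesets, AP1G1 no longer lay below the other tissues and was not above all of them either. The largest of its 6 differences was 0.50. EP400 was not called by the mean of its probesets. Without a center term the calls were 2340 higher and 364 lower, and list counts fell to 1 for DNA replication, 4 for DNA repair, 9 for chromatin and 3 for antigen presentation. Among probesets above the median of mean signal 1124 were called lower. Without the pancreas arrays the calls lower were 3917, and those with a gap of at least 1 were 841 higher and 398 lower. By the pooled contrast with separated means, 6941 were higher and 11283 lower. Leaving out 1 center or 1 replicate gave 3029 to 4236 higher and 718 to 1919 lower, 2 to 5 DNA replication genes and 4 to 7 DNA repair genes. The fewest lower calls, 718, came without replicate 2, then 1082 without replicate 1 and 1204 without Oregon. The cause was not tested, although fewer arrays entered these fits.

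Whether arrays with the same aliquot number at a center share more than the number was not tested. Deviations of same-numbered arrays correlated between -0.304 and 0.349 at Yerkes, -0.059 and 0.023 at Oregon and -0.056 and 0.093 at Nebraska. With the replicate block (center by aliquot) 4345 probesets were called higher and 2169 lower, 538 and 52 of them with a gap of at least 1, and among named genes GFAP lost its call and HERPUD1 gained one. GADD45B and RFC5 lost theirs under several settings, and DDIT4 was no longer separated after quantile normalization, at -0.13.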
